A study of Mus musculus with 3 samples.

Results

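The proteasome genes of the mouse were followed in RNA bound to tagged ribosomes of the dentate gyrus. Members were all gene symbols made of Psm, 1 letter from a to g and a number, which gave 48 of 32531 genes with a row. The mice were adults of line NIDA186 (Penk-TRAP), strain C57BL/6J. They make the ribosomal protein Rpl10a fused to the fluorescent protein EGFP in cells where regulatory sequences of the proenkephalin gene, Penk, are active. Tagged polysomes were pulled down with antibodies against EGFP (translating ribosome affinity purification, TRAP). The 3 libraries were untreated, form 1 group and are called replicates 1 to 3. Libraries of unbound or whole-tissue RNA were not analysed here, so genes were compared with other genes within a library. RNA carried over from untagged cells, fewer cells of a type and less RNA per cell cannot be told apart. The labels do not tie replicates to animals, and p-values measure only the spread between libraries, which may be technical.

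The proteasome is the protease that degrades ubiquitin-tagged proteins in the cytosol and nucleus. Its barrel, the 20S core, has outer rings of alpha subunits (Psma genes), which gate the entrance, and inner rings of beta subunits (Psmb genes), which include the proteolytic sites. The 19S regulatory particle caps the barrel: a ring of ATPases (Psmc genes) unfolds substrates, and non-ATPase subunits (most Psmd genes) bind and remove ubiquitin. Other caps are the activators (Psme genes), and interferon replaces the catalytic beta subunits with those of the immunoproteasome. In neurons the proteasome is known for its part in synaptic plasticity.

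Transcription of proteasome genes is known to be raised by the factor Nrf1 (gene Nfe2l1) through the antioxidant response element, with the letters TGACNNNGC. RefSeq promoter windows on GRCm38.p6 were found for 40 of the 48 genes. On either strand of the 250 bases before the start, 5 of the 40 genes (12.5%) held these letters, against 11.5% of all 27025 genes with a window, a share near the background. They were Psmb5, Psmb6, Psmc6, Psmd9 and Psmd12. The 100 bases before the RefSeq start, or before the GENCODE start where that lies upstream, are given for the immunoproteasome gene Psmb10, for the constitutive catalytic genes Psmb5 and Psmb6, and for the activator gene Psme3, on which the results below turn. Capitals mark the match to TGACNNNGC.
Psmb10, chr8:105938445-105938544, minus strand: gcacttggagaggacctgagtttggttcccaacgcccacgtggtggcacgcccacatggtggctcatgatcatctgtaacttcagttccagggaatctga
Psmb5, chr14:54618023-54618122, minus strand: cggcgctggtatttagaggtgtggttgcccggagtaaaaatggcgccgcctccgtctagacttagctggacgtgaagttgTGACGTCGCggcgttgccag
Psmb6, chr11:70525257-70525356, plus strand: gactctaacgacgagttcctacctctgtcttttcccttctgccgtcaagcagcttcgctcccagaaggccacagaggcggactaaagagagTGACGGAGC
Psme3, chr11:101316113-101316212, plus strand: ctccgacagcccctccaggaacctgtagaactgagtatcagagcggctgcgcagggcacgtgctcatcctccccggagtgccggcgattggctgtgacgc
In Psmb6 the match ends at the base before the RefSeq start, and in Psmb5 it begins 47 bases before it. A match shows only that the letters stand there.

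The libraries held 5348761, 19195559 and 11059982 counts on genes in replicates 1 to 3, and replicate 1 stood apart from the others. It had at least 10 counts for 8795 genes, against 14252 and 12019 genes in replicates 2 and 3, and 50.7% of its listed reads fell on no gene, against 35.4 and 40.5%. Levels are given as CPM per kb, counts scaled to a common library total and divided by exon length. A count of 0 allows up to 3 counts, or 0.707, 0.131 and 0.257 CPM in replicates 1 to 3, for counting error only.

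In replicates 1 to 3 the 48 genes together took 0.104, 0.218 and 0.137% of the counts on genes, on average 0.153 ± 0.0585% (SD, n = 3). In replicate 1, 3 genes chosen after their values were seen made most of that share. Psme3, Psme4 and Psmf1 held 75.9% of the 5573 proteasome counts there, against 13.8% of 41793 counts in replicate 2 and 8.85% of 15102 counts in replicate 3. The other 45 genes took 0.0251, 0.188 and 0.124% of gene counts. Of the 48 genes, 24 had at least 10 counts in every library, beside 24.3% of all genes with a row. Without replicate 1 it was 41, and the share of all genes was not computed for that setting. In single libraries, 26, 44 and 41 of the 48 reached 10 counts in replicates 1 to 3, beside 8795, 14252 and 12019 of all 32531 genes. At 0 counts were 11, 3 and 5 of the 48.

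**Figure D1:**
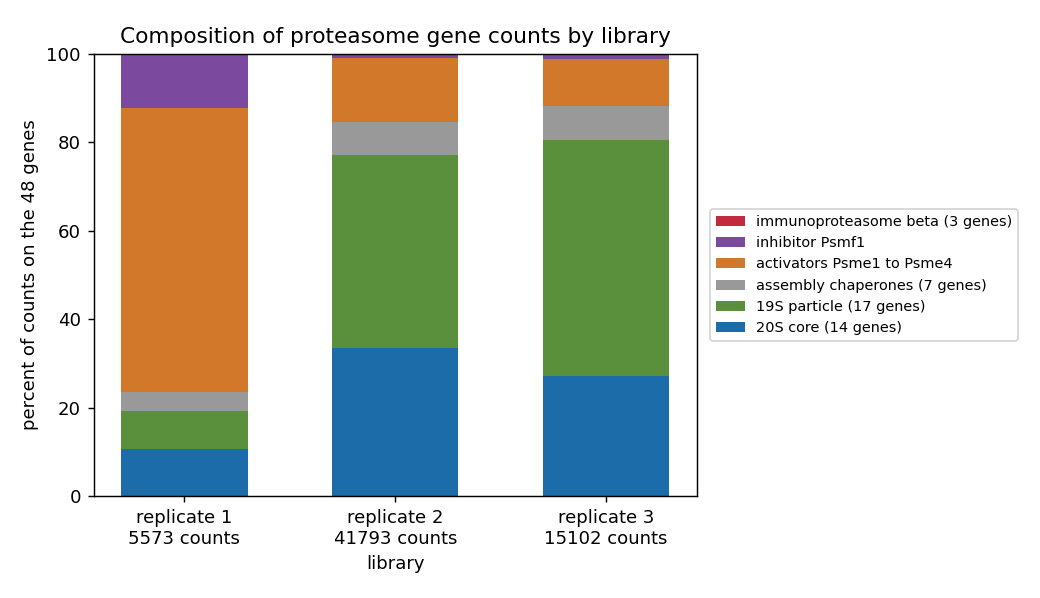
Composition of the counts on the 48 proteasome genes in each library: bars are stacked by role and sum to 100% (vertical axis, percent of counts). Activator genes take 64.2% in replicate 1, against 14.4% in replicate 2 and 10.7% in replicate 3; the immunoproteasome share, at most 0.318%, is too thin to see.

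Each tested gene was placed against the median tested gene of its library on the log2 CPM per kb scale (limma, TREAT with a log2 threshold of 1, Benjamini-Hochberg adjusted over 8157 genes). The filter on low counts kept 28 of the 48 genes, and 1 of these, Psme3, lay above the median gene, where 9.59% of all tested genes did. Below it lay 0 of 28, beside 3.57% of all tested genes. This limma count was also 0 at an unadjusted p under 0.05, beside 755 of all 8157 tested genes. With no log2 threshold, Psma6 and Psme3 lay above, beside 20.6% of all tested genes, and Psmd3 below, beside 11.8%. The count depended on replicate 1: without it 10 of 41 tested genes lay above, beside 14.6% of all tested genes. Those were Psma2, Psma4, Psma5, Psma6, Psmc1, Psmc5, Psmd1, Psmd12, Psmd14 and Psme3.

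**Figure D2:**
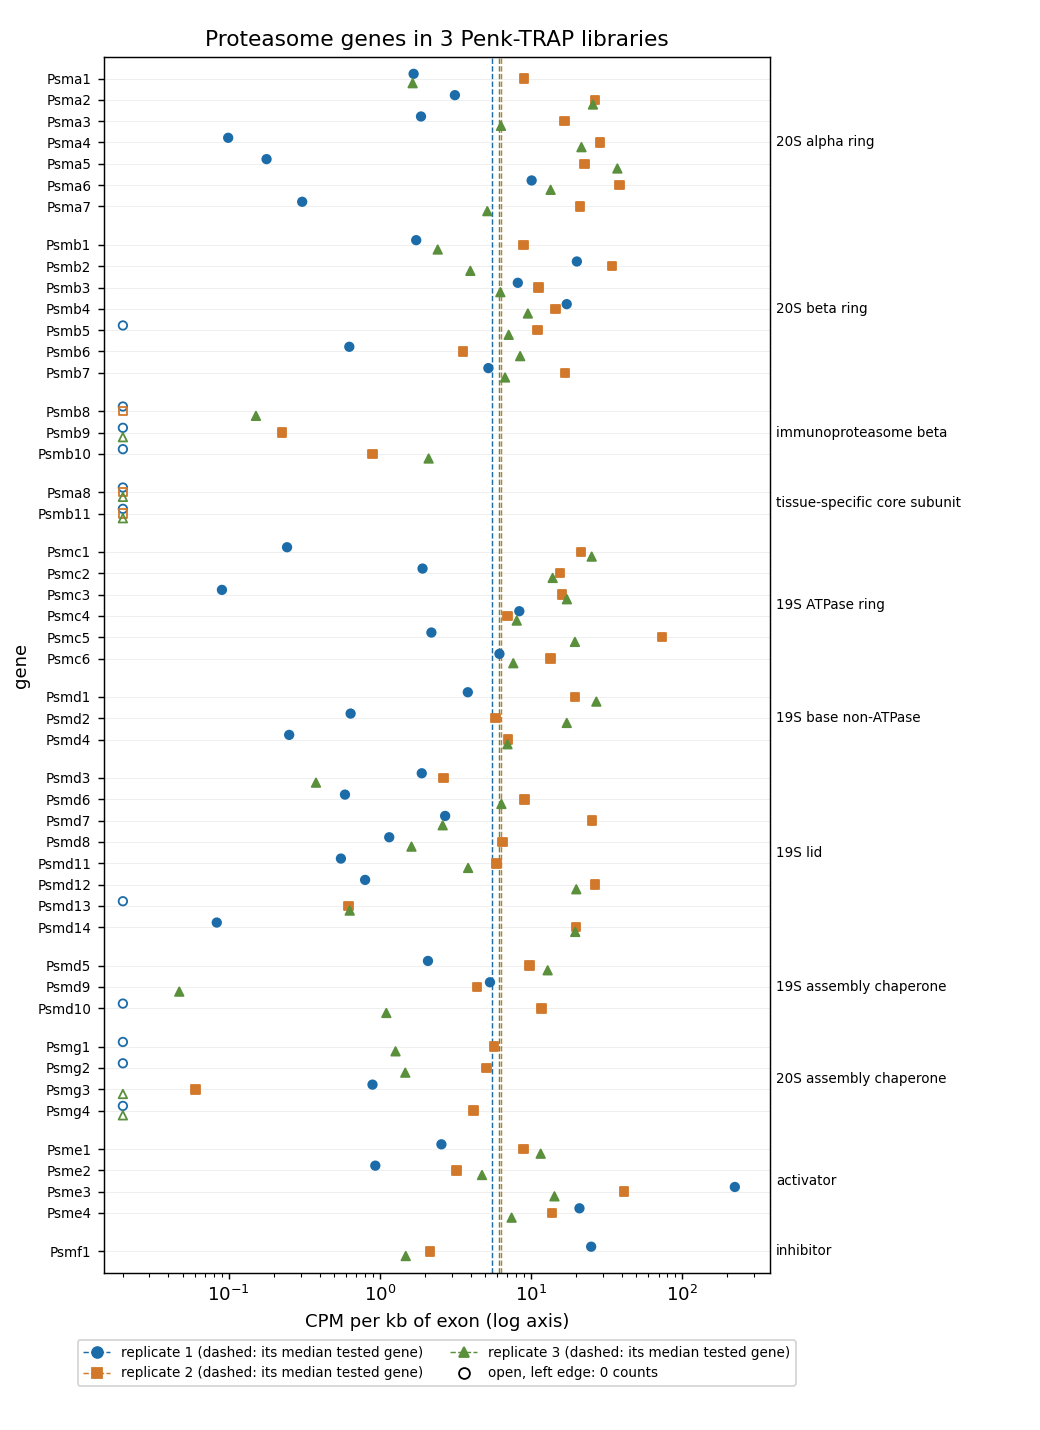
Level of each of the 48 genes (rows, grouped by role) in CPM per kb of exon on a log axis: 1 symbol per library, filled where counted and open at the left edge where the count was 0, with dashed lines at each library's median tested gene. Symbols of replicate 1 lie left of the others for most core and regulatory genes, whereas Psme3 and Psmf1 lie far right in replicate 1, and the 3 immunoproteasome genes lie left of every dashed line.

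Of the 7 alpha ring genes, most lay higher in replicates 2 and 3 than in replicate 1. All 7 exceeded the median gene in replicate 2 and 5 did in replicate 3, against 1 in replicate 1; by construction the median splits the tested genes evenly. Psma6, highest on average, had 10.1, 38.5 and 13.5 CPM per kb in replicates 1 to 3 and averaged 20.7 ± 15.5 (SD, n = 3). It was the 1 alpha gene above the median gene in each library, at a log2 level of 1.54 (SE 0.52, adjusted p = 0.442, limma), which passed without replicate 1 (2.36, adjusted p = 0.00889). Psma1, the lowest, had 1.68, 8.99 and 1.65 CPM per kb. Psma4 and Psma5 changed most between libraries: Psma4 had 1, 1557 and 599 counts (0.0995, 28.7 and 21.6 CPM per kb), and Psma5 had 1, 684 and 577 counts (0.178, 22.6 and 37.4 CPM per kb). Psma2 reached 3.15, 26.5 and 25.8 CPM per kb, Psma3 1.88, 16.8 and 6.35, and Psma7 0.307, 21.2 and 5.15. Within replicate 2, the deepest library, the highest alpha gene exceeded the lowest 4.28-fold, and within replicate 3 22.6-fold.

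Of the 7 genes of the constitutive beta ring, 3 exceeded the median gene in replicate 1, 6 in replicate 2 and 5 in replicate 3. The 3 of replicate 1 encode structural subunits. Psmb2 led with 20.2, 34.5 and 3.98 CPM per kb, a mean of 19.5 ± 15.3 (SD, n = 3), so replicate 3 was its low library. Psmb4 had 17.3, 14.6 and 9.56 CPM per kb, and Psmb3 8.20, 11.3 and 6.29, both higher than the median gene in every library. Psmb1, also structural, had 1.74, 8.92 and 2.42 CPM per kb. The catalytic subunits were uneven: Psmb7, with the trypsin-like site, had 5.24, 16.8 and 6.75 CPM per kb. Psmb5, with the chymotrypsin-like site, had 0, 11.1 and 7.14, and Psmb6, with the caspase-like site, 0.630, 3.54 and 8.501. Of the 6 beta genes tested, 0 passed in either direction (limma), beside 9.59% of all tested genes above and 3.57% below. At an unadjusted p under 0.05 it was also 0, beside 1188 genes above and 755 below of all 8157 tested.

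Some of these levels are uncertain because near-identical copies exist. Of the 50-base stretches in the longest coding transcript, 57.1% in Psmb5, 55.8% in Psmb3, 55.4% in Psma5 and 31.5% in Psma4 also stood in transcripts of other genes, mainly pseudogenes in GENCODE vM21. For Psme2 the share was 59.3%, nearly all of it with the gene Psme2b, which the naming rule leaves out. Psmb7 shared 28.1% with the neighbouring gene Nek6 and Psmb9 12.5% with Tap1. Reads from such stretches may be counted as aligned to several places or as ambiguous.

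The immunoproteasome genes were the lowest group with any counts. Psmb8 (chromosome 17, 34197721 to 34201454, plus strand, GRCm38), which takes the place of Psmb5, had 0, 0 and 6 counts in replicates 1 to 3. Psmb9 (chromosome 17, 34181987 to 34187764, minus strand), which takes the place of Psmb6, had 0, 19 and 0. Psmb10 (chromosome 8, 105935735 to 105938444, minus strand), which takes the place of Psmb7, had 0, 35 and 42. All 3 were thus at 0 in replicate 1, and none had counts in every library. On the level scale Psmb10 reached 0.896 and 2.11 CPM per kb in replicates 2 and 3, where Psmb7 had 16.8 and 6.75.

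In each library where a pair could be read, the immunoproteasome gene lay below its constitutive counterpart. Per kb of exon, Psmb8 lay below Psmb5 at least 286-fold in replicate 2 and 47.0-fold in replicate 3, and both were at 0 in replicate 1. Psmb9 lay below Psmb6 at least 3.26-fold in replicate 1, 15.6-fold in replicate 2 and at least 121-fold in replicate 3. Psmb10 lay below Psmb7 at least 12.6-fold, 18.8-fold and 3.20-fold in replicates 1 to 3. The bounds set a count of 0 to 3 counts in that library and take the counterpart's count and both exon lengths as exact. With other lengths the bounds would change. Psmb6 had only 5 counts in replicate 1, so with counting error 3.26-fold is not a firm lower bound. Mean log2 differences were -6.58 for Psmb8 minus Psmb5 (SD 1.93, n = 2, exact sign-flip p = 0.5), -5.17 for Psmb9 minus Psmb6 (SD 2.17, n = 3, exact p = 0.25) and -3.86 for Psmb10 minus Psmb7 (SD 2.13, n = 3, exact p = 0.25). These two-sided tests over libraries cannot go below 0.5 with 2 libraries or 0.25 with 3, and the values adjusted over the 3 pairs were 0.5, 0.375 and 0.375. Where a gene had 0 counts, as Psmb8 in replicate 2, Psmb9 in replicates 1 and 3 and Psmb10 in replicate 1, the difference depends on the prior count of 2, so these means and SDs are not measured sizes. With a prior count of 0.5 the mean differences were -7.69, -6.50 and -4.57. Raising every count below 3 to 3 gave -6.13, -3.87 and -3.04. With the longest coding transcript as length they were -5.52, -4.96 and -5.04, and with no length correction -4.67, -4.20 and -4.87.

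Of the counts on the 3 pairs together, immunoproteasome genes made up 54 of 1752 in replicate 2 (3.08%, 95% exact Clopper-Pearson interval 2.32 to 4.003%) and 48 of 579 in replicate 3 (8.29%, interval 6.18 to 10.8%). In replicate 1 they made up 0 of 81 counts (interval 0 to 4.45%, where 3 counts of 81 would be 3.70%). Microglia are known to carry immunoproteasome subunits, and 12 of their markers were read beside these genes. The summed level of the 12 markers was 6.84, 13.9 and 42.5 CPM in replicates 1 to 3, against 0, 2.36 and 4.11 CPM for the 3 immunoproteasome genes. Itgam and P2ry12, named after their values were seen, held most of the marker sum in replicate 3; the other 10 markers summed to 3.30, 10.3 and 7.79 CPM. The immunoproteasome sum and the sum of all 12 markers were highest in replicate 3, and that of the 10 markers in replicate 2. In replicates 1 to 3, 10, 1 and 4 of the 12 were at 0 counts. In replicate 1 these were all but Csf1r and Itgam, so Cx3cr1, P2ry12, Tmem119 and Aif1 were at 0, and C1qa was at 0 in every library. The 10 endothelial and mural cell markers summed to 474, 1070 and 459 CPM, and to 104, 322 and 392 CPM without Rgs5, the highest in replicates 1 and 2. The part of these cells in the result was not tested.

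**Figure D3:**
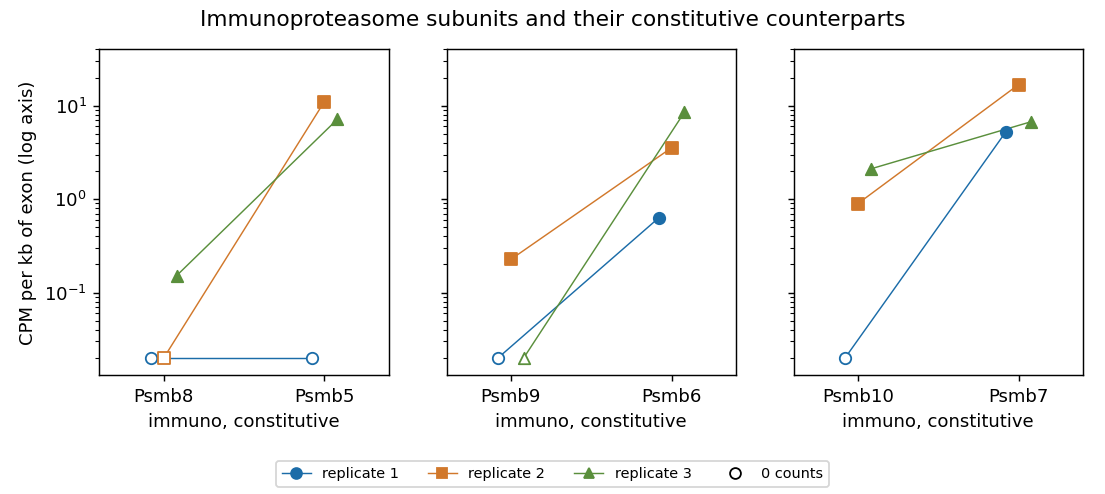
Levels of each immunoproteasome gene (left) and its constitutive counterpart (right) in CPM per kb of exon on a log axis: lines join values of 1 library, and open symbols at the bottom stand for 0 counts. Every line but the flat one of replicate 1 for Psmb8 and Psmb5, both at 0, rises to the right, by 3.20-fold at the least in Psmb10 and Psmb7 of replicate 3.

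The tissue-specific core subunits had no counts. Psma8, known from the testis, and Psmb11, the subunit of the thymus proteasome, were at 0 in each of the 3 libraries, so each was limited to the levels that a count of 0 allows.

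Among regulatory genes, the 6 genes of the ATPase ring all exceeded the median gene in replicates 2 and 3, and 2 did so in replicate 1. Psmc5 was the highest on average with 2.20, 73.5 and 19.6 CPM per kb (mean 31.8 ± 37.2, SD, n = 3), a mean carried by replicate 2. Psmc4 was the lowest and the steadiest, with 8.39, 7.004 and 8.07 CPM per kb (mean 7.82 ± 0.73). Of the 42 proteasome genes with a mean of at least 1 CPM, 41 varied between libraries beyond sampling noise (Poisson chi-square, Benjamini-Hochberg adjusted), beside 98.0% of all such genes, and Psmc4 was the exception (adjusted p = 0.159). Beyond a coefficient of variation of 0.3, 34 of the 42 varied, beside 68.8% of all such genes. Psmc1 and Psmc3 were near 0 in replicate 1, with 2, 948 and 571 counts for Psmc1 and 1, 963 and 528 for Psmc3. Psmc6 had 6.20, 13.5 and 7.66 CPM per kb and Psmc2 1.92, 15.6 and 13.9. In replicate 3 the ring spanned 3.30-fold, against 10.5-fold in replicate 2.

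The non-ATPase genes of the 19S base hold scaffold subunits and a ubiquitin receptor. Psmd1, a large scaffold subunit, had 3.83, 19.7 and 27.1 CPM per kb (mean 16.9 ± 11.9, SD, n = 3). Psmd2, its counterpart, had 0.642, 5.85 and 17.3, and the receptor Psmd4 0.252, 7.06 and 7.01. Each of these 3 genes was lowest in replicate 1. Without replicate 1, Psmd1 passed as above the median gene (log2 level 2.38, adjusted p = 0.00824, limma), whereas with it the level was 1.08 (adjusted p = 0.806).

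The 8 lid genes were spread widely, from Psmd12 at 0.801, 26.5 and 19.99 CPM per kb to Psmd13 at 0, 0.621 and 0.633. Psmd14, the deubiquitinase that cuts ubiquitin chains off substrates, had 1, 1287 and 648 counts, or 0.0836, 19.9 and 19.7 CPM per kb. Its partner in the lid, Psmd7, had 2.71, 25.5 and 2.61, so the 2 genes lay closest in replicate 2. Psmd6 had 0.589, 9.11 and 6.39 CPM per kb, Psmd8 1.16, 6.51 and 1.62, and Psmd11 0.554, 5.93 and 3.85. Psmd3 had 1.90, 2.65 and 0.379 CPM per kb, below the median gene in each library (log2 level -2.23, adjusted p = 0.284, limma). Highest and lowest lid genes differed 42.7-fold in replicate 2 and 52.8-fold in replicate 3. Psmd13 shared 15.8% of its 50-base stretches with other genes, mainly its neighbour Sirt3.

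Core and regulatory genes could not be separated by level. The median log2 level of the 14 constitutive core genes was -1.59, 1.399 and 0.19 in replicates 1 to 3, and that of the 17 genes of the 19S particle -2.69, 1.09 and 0.40. The core median minus the 19S median was 1.10, 0.31 and -0.21, a mean of 0.40 (SD 0.66, n = 3) that is smaller than its spread and differs in sign between libraries. For the 3 immunoproteasome genes the median was -6.92, -4.57 and -4.97, lower than both other medians in each library. For all 48 genes it was -2.49, 0.57 and 0.05, where the median tested gene stands at 0 by construction.

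Of the 7 assembly factors, 0, 2 and 1 exceeded the median gene in replicates 1 to 3. Of the chaperones of the 19S base, Psmd5 had 2.09, 9.78 and 12.9 CPM per kb and Psmd10 (gankyrin) 0, 11.8 and 1.11. Psmd9 had 165, 730 and 4 counts, or 5.37, 4.40 and 0.0472 CPM per kb, so that its low library was replicate 3. The 4 chaperones of the 20S core were scarce: Psmg1 had 0, 175 and 20 counts, its partner Psmg2 0, 203 and 30, Psmg4 0, 53 and 0, and Psmg3 11, 4 and 0. None exceeded the median gene in any library.

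The activator Psme3 (chromosome 11, 101316213 to 101323537, plus strand) was the highest proteasome gene on average. It encodes PA28-gamma, a nuclear cap that works without ubiquitin. Its counts of 2799, 2801 and 494 gave 224, 41.5 and 14.3 CPM per kb in replicates 1 to 3, above the median gene in each library. The mean of 93.2 ± 114 CPM per kb (SD, n = 3) was carried by replicate 1. Psmc5 exceeded Psme3 in replicate 2 (73.5 CPM per kb), as did several genes in replicate 3, up to Psma5 at 37.4. The log2 level of Psme3 was 3.08 (SE 0.61, adjusted p = 0.0203, limma) and held without replicate 1 (2.46, adjusted p = 0.00454). The call ended with the longest coding transcript as length (2.68, adjusted p = 0.0605) and with no length correction (2.25, adjusted p = 0.0787). No 50-base stretch of its transcript stood in another gene. In replicate 1 it held 50.2% of all proteasome counts, against 6.70% in replicate 2 and 3.27% in replicate 3.

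The other activators differed in pattern. Psme4, the cap PA200, had 21.0, 13.8 and 7.46 CPM per kb (mean 14.1 ± 6.77, SD, n = 3) and like Psme3 was highest in replicate 1. Psme1 and Psme2, which form the interferon-inducible cap PA28, were both lowest in replicate 1 and highest in replicate 3, with 2.56, 8.97 and 11.6 CPM per kb for Psme1 and 0.936, 3.22 and 4.75 for Psme2. Psmf1, the inhibitor PI31, had 25.1, 2.15 and 1.49 CPM per kb. It lay above the median gene in replicate 1 and below it in the other libraries.

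Low values in replicate 1 ran through most proteasome genes. Of the 42 with a mean of at least 1 CPM, 33 were lower in replicate 1 than in replicates 2 and 3 on average, relative to the median gene, beside 59.0% of all 12248 genes at that level with an exon length. The median of replicate 1 minus the mean of the others was -2.58 for these 42 genes and -0.61 for the 12248. In replicate 1, 16 of the 48 genes had fewer than 3 counts. The differences of such genes depend on the prior count and are not measured sizes. Across all genes this difference moved with exon length. Genes were cut by length into 5 bins of nearly equal gene number. The median difference was -1.60 in the shortest bin (up to 2.76 kb) and 0.00 in the longest. Of the 42 genes, 20 fell in the shortest bin, with a median of -3.86, and 13 in the next (2.76 to 4.12 kb), with a median of -2.86, beside -1.01 for all genes there. The part of length, depth or RNA quality in the result was not tested. Across the 48 genes, levels of replicates 2 and 3 had a Spearman correlation of 0.76, those of replicates 1 and 2 0.44, and those of replicates 1 and 3 0.33. Across the 12248 genes the values were 0.73, 0.60 and 0.55. The 48 include genes with a mean under 1 CPM, such as Psma8 and Psmb11, which the 12248 leave out. The correlations are thus not like for like. All are over genes that share libraries and are not independent replicates.

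**Figure D4:**
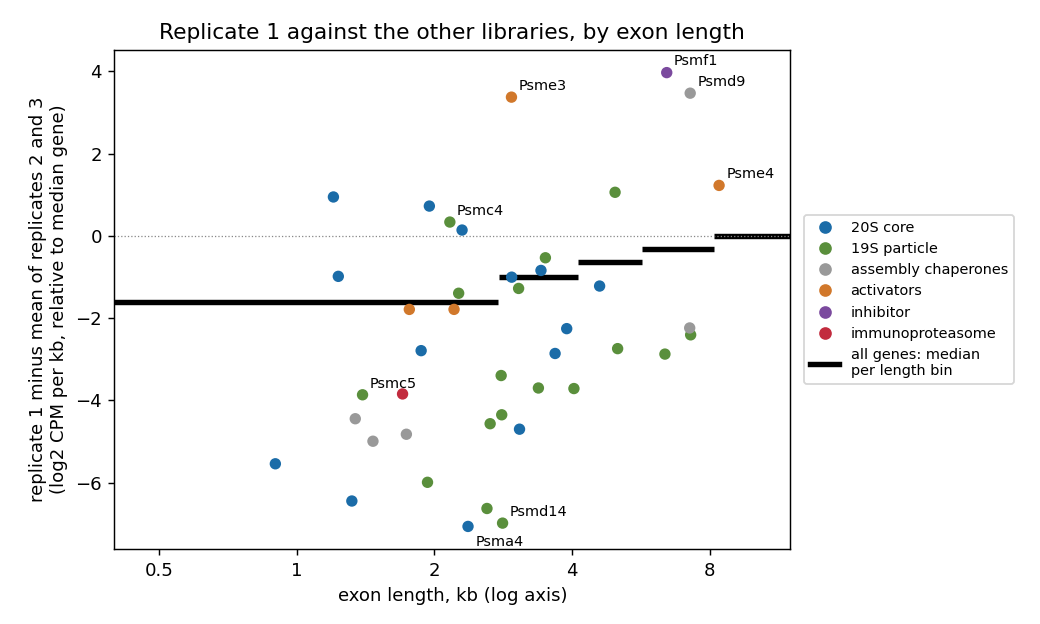
Replicate 1 minus the mean of replicates 2 and 3 on the log2 CPM per kb scale, relative to the median gene (vertical axis), against exon length on a log axis, for the 42 proteasome genes with a mean of at least 1 CPM: points are genes colored by role, and black bars are medians of all genes in each of 5 bins of length. Of the points 33 lie below 0, down to -7.07 for Psma4, whereas Psmf1 (3.97), Psmd9 (3.47) and Psme3 (3.37) lie highest. Psma4 had 1 count in replicate 1, so the size of its difference depends on the prior count.

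Genes that work with the proteasome were read from 4 lists beside it. Of 8 tested proteasome partners, 1 lay above the median gene, Akirin2, which carries proteasomes into the nucleus, at 97.6, 37.0 and 12.6 CPM per kb (adjusted p = 0.0453, limma). Zfand5 had 3.49, 19.3 and 13.4 CPM per kb, the maturation factor Pomp 0.407, 22.2 and 4.53, and the lid peptide gene Shfm1, the lowest, 0.133, 3.32 and 1.06. Of 11 ubiquitin genes tested, 2 lay above: the shuttle factor Ubqln2 at 34.3, 38.7 and 37.9 CPM per kb (adjusted p = 0.0137) and Rps27a, which encodes ubiquitin fused to a ribosomal protein, at 51.0, 18.3 and 32.8 (adjusted p = 0.0453). Uba1, the ubiquitin-activating enzyme, had 9.74, 19.7 and 37.0 CPM per kb.

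In the list on the control of proteasome genes, 0 of 10 tested lay above the median gene and 1 below, Nfe2l3, with 9, 23 and 11 counts (log2 level -3.65, adjusted p = 0.0103, limma). At an unadjusted p under 0.05 (limma), 2 lay above and 2 below, beside 1188 and 755 of all 8157 tested genes. Nfe2l1, the gene of Nrf1, had 35.8, 15.95 and 24.4 CPM per kb, higher than the median gene in each library (log2 level 2.0, adjusted p = 0.144, limma). Fbxw7, whose product targets Nrf1 for degradation, had 17.6, 27.8 and 42.0, Btrc 24.4, 3.89 and 4.46, and Mafk, the lowest, 0, 28 and 1 counts. Of 5 tested genes of antigen presentation by MHC class I, for which the immunoproteasome cuts peptides, 2 lay above: B2m at 15.1, 137 and 79.8 CPM per kb (adjusted p = 0.00705) and Calr at 34.8, 41.2 and 29.3 (adjusted p = 0.0196). Pdia3 had 75.3, 36.6 and 6.00, and Nlrc5 0 counts in each library. Of the 12 listed genes, 7, with Nlrc5, were kept out of the test by the filter on low counts. Among these, named after their values were seen, the peptide transporter genes Tap1 and Tap2 had 0, 77 and 19 counts and 0, 0 and 67 counts, and the class I heavy chain genes H2-K1 and H2-D1 had 0, 56 and 84 counts and 5, 206 and 3 counts. The median log2 level of the 12 genes was -5.07, -2.85 and -1.65 in replicates 1 to 3, and 6, 2 and 1 of them were at 0 counts. Over the 4 lists 5 of 34 tested genes lay above, beside 9.59% of all tested genes. Without replicate 1 it was 8 of 41, beside 14.6%, and without replicate 3 it was 3 of 35, beside 7.16%. Without replicate 2 it was 0 of 31, beside 7.29%. At an unadjusted p under 0.05 (limma) 6 lay above there, and the share of all genes at that threshold was not computed. Genes below numbered 1, beside 3.57% of all tested genes. It was 4 without replicate 1 (6.08% of all tested genes), 0 without replicate 2 (3.26%) and 0 without replicate 3 (2.51%).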

How the data were processed

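The authors deposited whole-number read counts per gene symbol, 1 file per library, not normalised and not pooled. STAR 2.0.0e, HTSeq and mm10 are named, per the submitters' processing notes; annotation and strand setting are not given in the sources used here. Summary rows were left out. Library totals were 5348761, 19195559 and 11059982 gene counts. TMM factors (0.793, 1.19 and 1.06; edgeR 4.0.16, R 4.3.3) came from the 8510 genes kept by filterByExpr. Log2 CPM used a prior count of 2, minus log2 exon length (union of exons, GENCODE vM21, GRCm38), minus the library median of the 8157 kept genes with a length (95.9%). Levels were tested with limma 3.58.1 (trend, TREAT), adjusted p threshold 0.05. Sampling noise was tested at a mean of at least 1 CPM. Pair values were left out where both genes had 3 counts or fewer. The level and sampling noise tests were checked on simulated counts. Genes were set 16-fold above the median gene or changed 4-fold in 1 library, and smaller effects were not checked. Intervals cover counting error only.

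Alternatives were DESeq2 1.42.0 size factors, other filters, prior counts, lengths and thresholds, thinning, and each replicate left out. Named in full were immunoproteasome genes with their counterparts, tissue-specific subunits, the highest and lowest of each role, the 5 widest ranges, and the 3 highest and the lowest of each partner list; the other members follow in short. One gene that this rule names is not reported here. Members, roles and lists were chosen with earlier results of these data known. Shfm1 and AI314180 stood in for newer symbols, and Paaf1 matched no row. Figures were drawn with matplotlib 3.10.9.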

Additional observations from a re-analysis of the deposited data

How the results depend on the processing

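No paired analysis was possible because the 3 libraries form 1 group. The proteasome genes above the median gene numbered 1 of 28, against 0 with the longest coding transcript as length and 0 with no length correction, 8 of 46 with no filter (17.8% of all genes), 2 with no log2 threshold (20.6% of all genes), and 1 to 10 with single replicates left out. Those below numbered 0 of 28, beside 3.57% of all tested genes. With no filter it was 2 of 46, beside 16.7%, and with no log2 threshold 1 of 28, beside 11.8%. Over the 4 partner lists, 5 genes lay above, against 3 with the coding transcript, 1 with no length correction, 13 with no filter, 10 with no log2 threshold, 3 when thinned to the lowest total, and 0 to 8 with single replicates left out. Those below numbered 1 of 34, against 3 of 34 with no length correction (5.03% of all tested genes) and 0 of 29 when thinned (3.20%). There were 3 of 47 with no filter (16.7%), 3 of 34 with no log2 threshold (11.8%), and 0 to 4 with single replicates left out. With all genes of at least 1 count as the reference, which lowers the median gene, the core stood at 1.94 (0.00 as reported). The 19S particle stood at 1.54 (SD 1.36, n = 3), against -0.40 as reported (SD 2.01, n = 3). Its mean thus changed sign, but as reported its median lay below the median gene only in replicate 1. The immunoproteasome stood at -3.55 (-5.49 as reported). Proteasome genes with at least 10 counts in every library numbered 24 to 41 with single replicates left out, where the share of all genes was not computed. The causes were not tested. The direction of the 3 immunoproteasome differences held under every setting run. Genes varying between libraries numbered 41 of 42 as reported, beside 98.0% of all genes, 43 of 43 with DESeq2 size factors and 45 of 46 with no filter. Without replicates 1, 2 and 3 in turn they numbered 37 of 43, 34 of 40 and 40 of 43. For these settings, DESeq2 size factors and no filter, the share of all genes was not computed. Beyond a coefficient of variation of 0.3 they numbered 34 of 42, beside 68.8% of all genes. Where a gene had 0 counts, as the 3 immunoproteasome genes in replicate 1, the depth gives an upper limit only.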
